A study of Mus musculus with 6 samples.

Results

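The immediate early genes are the genes that a cell switches on within minutes of a growth factor or stress signal, before any new protein has to be made. Serum and fibroblast growth factor reach them through ERK kinases, which act on SRF and its partner factors and on CREB at the promoters. The products are mostly transcription factors. FOS and JUN proteins pair to form AP-1, which binds TGANTCA, whereas MYC pairs with MAX at the E-box CACGTG. Many of these genes hold an RNA polymerase II (Pol II) that has started and halted shortly after the transcription start site (TSS), and its release into the gene body by P-TEFb is a known step of their control. In muscle stem cells (MuSCs) the FOS, JUN and EGR genes are known for responding to the dissociation of the tissue as well as to growth signals.

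The members described are 10 of the 14546 genes in the deposited table: the FOS family genes Fos, Fosb and Fosl1, the JUN family genes Jun, Junb and Jund, and Egr1, Ier2, Atf3 and Myc. They were chosen by name as textbook immediate early genes, with earlier results of these data known. All 10 passed the filter on low values that kept 12451 genes. The data are PRO-seq libraries of proliferating mouse MuSCs, 3 from Ctrl (genotype Pax7CreERT/Suv4-20h1WT) and 3 from Kmt5b-sKO (Pax7CreERT/Suv4-20h1KO). Suv4-20h1 is an older name of Kmt5b, the enzyme that places the second methyl group on lysine 20 of histone H4. Both groups carry the tamoxifen-inducible Cre recombinase under control of Pax7, which acts in Pax7-positive cells only, and in Kmt5b-sKO it deletes floxed Kmt5b alleles. Per the methods, the mice are on a C57BL/6 background, and the cells were purified with magnetic beads from limb and trunk muscle and cultured with serum, LIF and bFGF, so an agonist of the ERK pathway was present in both groups. The labels give no age. The methods describe young adult mice of both sexes for the study as a whole, given tamoxifen at that age, and whether animals were pooled for a library was not stated. The study lists 3 biological replicates, and where they share an animal or a culture the p-values measure only the spread between these libraries.

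In PRO-seq, engaged polymerases in isolated nuclei extend their nascent RNA with biotin-labelled nucleotides, which is then pulled down and sequenced. Values are RPM (reads scaled to the library total) over the first 400 nt of a transcript, the TSS region, and TPM (scaled also by length) over the rest, the gene body. The pausing index (PI) is the ratio of both values in a library. Because each region is scaled on its own, a PI of 1 does not mean equal polymerase density, and its rank among genes can be read. A PI difference between libraries is relative to the other genes of each library. A change of pausing shared by all genes of a library would be scaled out. Recovered reads ranged from 926904 to 3246052 per library in TSS regions and from 7425428 to 16249136 in gene bodies. Ctrl replicate 3 had the most TSS reads of the 6 and the lowest median log2 value of the tested genes in both regions. Kmt5b itself had 30.6, 35.4 and 38.5 TPM in the Ctrl and 37.8, 35.0 and 42.6 TPM in the Kmt5b-sKO gene bodies, so the genotype rests on the labels. Of the MuSC markers, 7 of 8 were listed, with Myod1 at 855 to 1328 TPM and Pax7 at 25.5 to 53.7 TPM. Of the endothelial markers, 3 of 5 were listed, none above 3.04 TPM, and of the fibro-adipogenic markers 4 of 5, none above 11.4 TPM. Of 5 immune markers only Cd68 was listed, at 214 to 402 TPM. Fewer transcribing cells and less transcription per cell cannot be told apart in such bulk libraries.

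The sequences below show the 150 nt before the RefSeq start of 4 members, since the counted TSS regions begin at or near it. The TSS region of Junb begins 30 nt downstream of its RefSeq start. Atf3 and Fos had the highest pausing indices of the 10, Jun the lowest, and Junb was the only member whose TSS values did not overlap between genotypes. They are from RefSeq (GRCm38.p6), 5′ to 3′ on the strand of the gene, with capitals at TATAAA and at TGACG on either strand. TGACG is the start of the CREB site TGACGTCA and was chosen after the sequences had been seen.
Atf3 (chr1:191183334-191183483, minus strand): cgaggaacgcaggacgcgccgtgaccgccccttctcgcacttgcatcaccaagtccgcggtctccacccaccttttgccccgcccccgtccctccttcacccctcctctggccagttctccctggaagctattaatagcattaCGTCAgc
Fos (chr12:85473740-85473889, plus strand): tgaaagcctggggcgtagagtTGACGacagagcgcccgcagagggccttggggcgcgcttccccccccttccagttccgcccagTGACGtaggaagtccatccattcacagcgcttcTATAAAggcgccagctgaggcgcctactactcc
Junb (chr8:84978749-84978898, minus strand): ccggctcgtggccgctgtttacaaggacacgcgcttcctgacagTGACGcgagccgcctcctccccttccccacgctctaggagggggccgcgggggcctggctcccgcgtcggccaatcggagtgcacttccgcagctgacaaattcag
Jun (chr4:95052223-95052372, minus strand): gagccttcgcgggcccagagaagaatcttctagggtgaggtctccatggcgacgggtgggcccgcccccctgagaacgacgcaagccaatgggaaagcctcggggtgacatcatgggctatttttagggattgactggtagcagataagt
Fos carried TATAAA ending 27 nt before the start and TGACG ending 124 and 61 nt before it. Atf3 held TGACG on the opposite strand, ending 2 nt before the start, Junb held it 101 nt before the start, and the Jun window held neither.

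RefSeq windows of 300 nt, from 250 nt before to 50 nt after the start, matched 6 of the 10 members (Fos, Fosb, Jun, Junb, Jund and Atf3). The Jund window lies at a RefSeq start 1210 nt upstream of the listed start. It held none of the motifs below and does not describe the sequence before the Jund reads used here. TGACG was in 4 of these 6 windows (Fos, Fosb, Junb and Atf3) and in 30.4% of the windows of all tested genes. TATAAA was in 2 (Fos and Junb) and in 6.96% of all. In Junb it lies after the RefSeq start but before the listed start, which is 30 nt downstream. GGGCGG, the core of the SP1 site, was in 4 of 6 (62.5% of all) and CCAAT in 3 of 6 (37.4% of all). The CArG box of SRF, the full TGACGTCA (which contains TGACG), the AP-1 site TGANTCA and the E-box CACGTG were in 0 of 6, against 1.3%, 3.13%, 5.1% and 9.87% of all windows. Both strands were searched, and a match is a match of letters in this window only.

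All 10 members lie on autosomes and all 10 listed transcripts are in the GENCODE annotation of GRCm38. Jun (chromosome 4, 95049034 to 95052222, minus strand), Junb (chromosome 8, 84976910 to 84978718, minus), Jund (chromosome 8, 70698949 to 70700616, plus) and Ier2 (chromosome 8, 84661331 to 84662852, minus) consist of 1 exon. Fos (chromosome 12, 85473890 to 85477273, plus), Fosb (chromosome 7, 19302696 to 19310051, minus), Fosl1 (chromosome 19, 5447703 to 5455945, plus) and Atf3 (chromosome 1, 191170296 to 191183340, minus) have 4 exons. Egr1 (chromosome 18, 34861207 to 34864956, plus) and Myc (chromosome 15, 61985391 to 61990350, plus) have 3. The gene bodies run from 1121 nt in Ier2 to 12644 nt in Atf3, and at most 34.5% of the tested genes had a shorter gene body than a member. For 9 of 10 members the listed start lay within 50 nt of the curated RefSeq start. For Jund it lay 1210 nt downstream, so what is called its TSS region begins that far inside the RefSeq gene. Genes on the opposite strand overlap Fosl1 (Ccdc85b), Jun (Junos) and Jund (Gm11175), and the counting used strand.

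None of the 10 members passed the test for a difference between genotypes in the gene body, the TSS region or the PI. Of all tested genes 2.99%, 1.66% and 0% passed it, so 0 of 10 lies near these shares. In the gene body, Egr1, Fosb, Fos and Ier2 had the largest fitted differences, all with the higher mean in Kmt5b-sKO, and none reached an adjusted p under 0.4. The PIs of Egr1 and Myc were lower in all 3 Kmt5b-sKO than in all 3 Ctrl libraries (3.09% of all genes), without passing the test. As ratios of unscaled reads per nt, the groups of each gene overlapped. By level, 8 of 10 ranked above 90% of all tested genes in the gene body, and 8 of 10 lay below the median PI of all genes. The plot of single libraries shows both regions of each member.

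**Figure D1:**
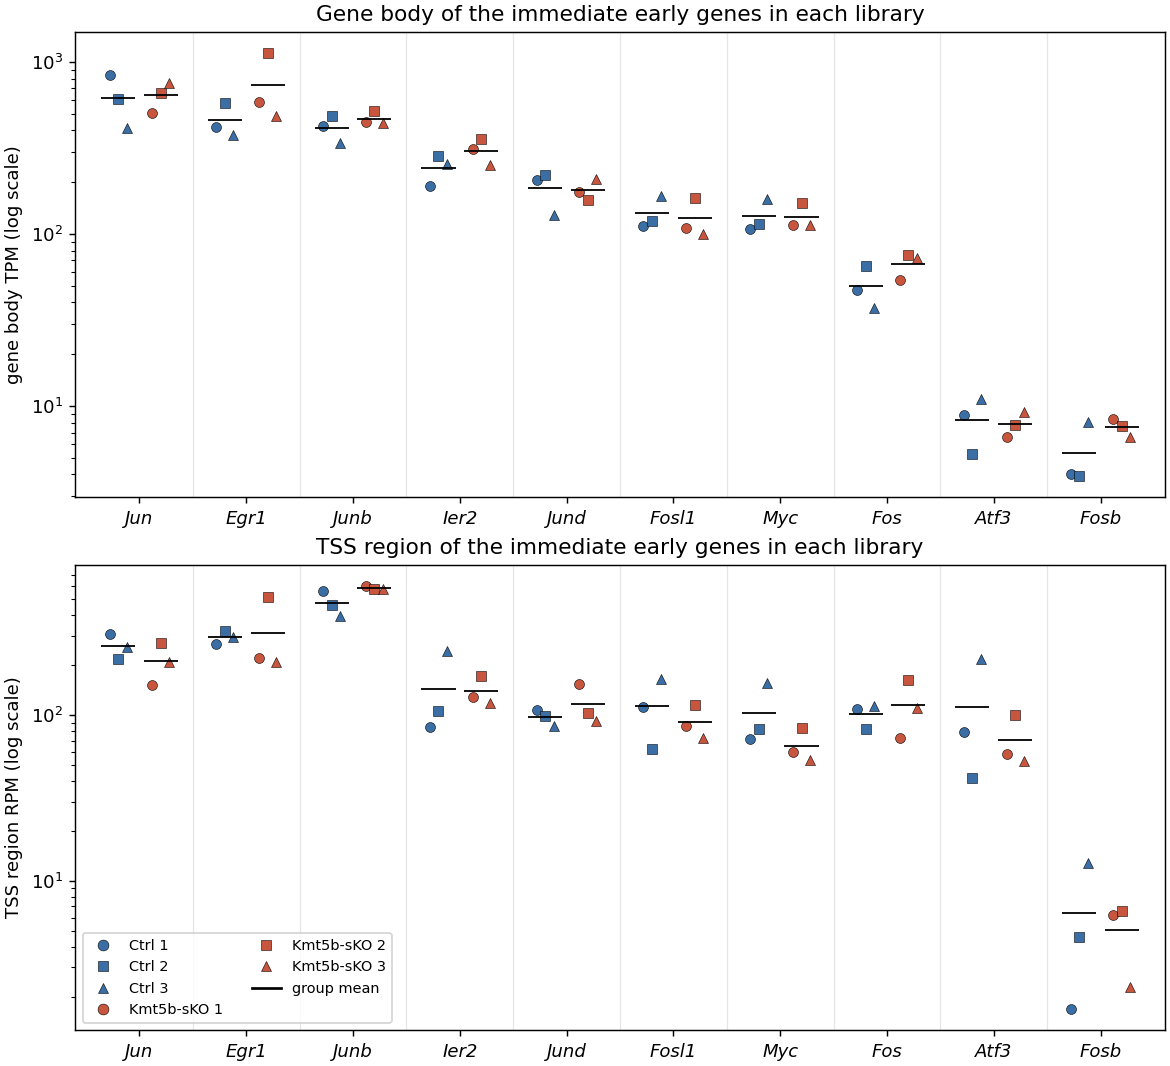
Gene body TPM (top) and TSS region RPM (bottom), both on log axes, of the 10 immediate early genes in the 3 Ctrl (blue) and 3 Kmt5b-sKO (red) libraries, ordered by the mean gene body value, with a bar at each group mean. The gene body values run from 3.92 TPM (Fosb in Ctrl replicate 2) to 1120.05 TPM (Egr1 in Kmt5b-sKO replicate 2), and the groups overlap for every member except for Junb in the TSS region.

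Of the FOS family, Fos encodes the best known partner of JUN and is one of the fastest induced genes in serum-treated cells. Its gene body held 47.0, 65.4 and 37.1 TPM in the Ctrl libraries, in the order of replicates 1 to 3 used throughout, and 53.7, 75.2 and 72.4 TPM in Kmt5b-sKO. The highest Ctrl library lay above the lowest Kmt5b-sKO library, and the log2 fold change between genotypes came to 0.45 with a standard error (SE) of 0.23 (limma adjusted p = 0.42, n = 3 each). The TSS region held 108, 82.7 and 113 RPM (Ctrl) against 72.1, 162 and 111 RPM (Kmt5b-sKO), so both the lowest and the highest library were Kmt5b-sKO libraries (log2 fold change 0.12, limma adjusted p = 0.93). The PI was 2.30, 1.27 and 3.06 (Ctrl) against 1.34, 2.16 and 1.53 (Kmt5b-sKO), with a fitted log2 difference of -0.33 (-0.69 to -0.053 with single libraries left out) and overlapping groups. With a mean PI of 1.94, Fos ranked above 59.8% of all tested genes and above 72.7% of those with a gene body under 5000 nt.

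Fosb encodes a FOS protein that also yields a truncated, long-lived isoform. It had the lowest level of the 10, with gene body values of 4.03, 3.92 and 8.05 TPM (Ctrl) against 8.41, 7.68 and 6.63 TPM (Kmt5b-sKO). Ctrl replicate 3 lay within the Kmt5b-sKO range and the other two Ctrl libraries lay below it. The log2 fold change of 0.53 (SE 0.28) had an adjusted p of 0.42 from limma, and without Ctrl replicate 3 it was 0.85 with an adjusted p of 0.060, the only call of a member in any setting. In the TSS region between 5 and 68 reads per library lay behind 1.69, 4.60 and 12.9 RPM (Ctrl) against 6.23, 6.60 and 2.30 RPM (Kmt5b-sKO). Its spread in that region was larger than that of 96.8% of the tested genes, and no genotype difference could be read from it.

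Fosl1 encodes FRA-1, an AP-1 protein of growing and migrating cells. Gene body values were 111, 119 and 166 TPM (Ctrl) against 108, 163 and 100.1 TPM (Kmt5b-sKO), and TSS values were 112, 62.6 and 166 RPM against 86.2, 114 and 72.7 RPM. The groups overlapped in both regions, with log2 fold changes of -0.11 and -0.23 (limma adjusted p = 0.89 and 0.85). Within the family, Fosl1 had the largest share of the summed gene body TPM in every library, 55.9% to 78.6%, followed by Fos with 17.5% to 40.4% and Fosb with 2.09% to 4.95%. Fos had its smallest share and Fosl1 its largest in Ctrl replicate 3.

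Of the JUN family, Jun encodes the partner that binds as a homodimer or with FOS proteins. Its gene body values of 833, 605 and 412 TPM (Ctrl) against 507, 663 and 752 TPM (Kmt5b-sKO) made it the highest of the 10 by mean, at the 99.7th percentile of the tested genes. The 3 Kmt5b-sKO libraries all lay between the lowest and the highest Ctrl library (log2 fold change 0.10, SE 0.29, limma adjusted p = 0.92). The TSS region held 307, 218 and 256 RPM (Ctrl) against 151, 272 and 208 RPM (Kmt5b-sKO), again with overlap (log2 fold change -0.33, limma adjusted p = 0.69). Its mean PI of 0.39 was the lowest of the 10 and at the 7.43rd percentile of all genes.

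Junb encodes a JUN protein with weaker activating capacity, which is also known for restraining proliferation. Its gene body held 422, 484 and 336 TPM (Ctrl) against 445, 519 and 441 TPM (Kmt5b-sKO) (log2 fold change 0.19, limma adjusted p = 0.71, and 0.047 to 0.31 with single libraries left out). Its TSS region was the highest of the 10 in all 6 libraries, at 559, 463 and 396 RPM (Ctrl) against 596, 573 and 575 RPM (Kmt5b-sKO). Here the 3 Kmt5b-sKO libraries lay above the 3 Ctrl libraries, by 0.31 on the log2 scale (SE 0.23, limma adjusted p = 0.70), and lay within 1.04-fold of each other. The closest libraries of the 2 groups, at 559 and 573 RPM, differed less than the Ctrl libraries did among themselves. The groups did not overlap for 10.2% of all tested genes in that direction.

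Jund, the JUN gene that is expressed most evenly across tissues, had gene body values of 205, 218 and 129 TPM (Ctrl) against 176, 157 and 209 TPM (Kmt5b-sKO), a log2 fold change of 0.0020 (SE 0.23). Its TSS values were 107.0, 98.3 and 86.4 RPM against 153, 102 and 92.5 RPM, a log2 fold change of 0.22 (limma adjusted p = 0.81), with Kmt5b-sKO replicate 1 apart from all other libraries. In the JUN family the shares of the summed gene body TPM were 45.0% to 57.1% for Jun, 28.9% to 39.4% for Junb and 11.7% to 16.7% for Jund, so the order of the 3 genes was the same in all 6 libraries. The mean shares of Jun were 50.1% in Ctrl and 49.4% in Kmt5b-sKO.

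Egr1 encodes a zinc finger factor that is induced through SRF and its ETS partners. Its gene body values were 417, 574 and 378 TPM (Ctrl) against 586, 1120.05 and 487 TPM (Kmt5b-sKO). Kmt5b-sKO replicate 2 stood apart from all other libraries and Kmt5b-sKO replicate 3 lay below the highest Ctrl library. This was the largest fitted difference among the members, a log2 fold change of 0.61 (SE 0.34, limma adjusted p = 0.45), and it was 0.25 to 0.85 with single libraries left out. The TSS region held 269, 319 and 296 RPM (Ctrl) against 221, 512 and 209 RPM (Kmt5b-sKO), with the 2 groups' means at 295 ± 24.9 and 314 ± 172 RPM (SD, n = 3 each). Ier2, which encodes a small nuclear protein induced along with Egr1, had 189, 285 and 255 TPM (Ctrl) against 310, 354 and 252 TPM (Kmt5b-sKO) (log2 fold change 0.33, limma adjusted p = 0.52). Its TSS values were 84.7, 106 and 242 RPM (Ctrl) against 129, 172 and 118 RPM (Kmt5b-sKO), so all 3 Kmt5b-sKO libraries lay between Ctrl libraries.

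Atf3 encodes a stress-induced factor of the CREB family that represses many AP-1 targets, its own gene included. It had few polymerases in the gene body, 8.81, 5.28 and 10.9 TPM (Ctrl) against 6.55, 7.73 and 9.20 TPM (Kmt5b-sKO). Its TSS region ranked above 90.2% of all genes, with 78.4, 41.9 and 217 RPM (Ctrl) against 58.0, 100.4 and 52.9 RPM (Kmt5b-sKO). The PI was therefore 8.90, 7.94 and 19.9 (Ctrl) against 8.86, 13.0 and 5.75 (Kmt5b-sKO), the highest of the 10 in every library and at the 98.9th percentile of all genes. Between 73 and 1143 TSS reads and 64 and 197 gene body reads per library lay behind it. The groups overlapped, with a fitted log2 difference of the PI of -0.36 (SE 0.44), which turned to 0.051 without Ctrl replicate 3.

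Myc encodes the factor that drives ribosome and nucleotide synthesis in growing cells. Gene body values were 106, 114 and 159 TPM (Ctrl) against 113, 151 and 113 TPM (Kmt5b-sKO), with a log2 fold change of 0.0011 (SE 0.20, 95% confidence interval -0.47 to 0.47). The TSS region held 71.9, 82.2 and 155 RPM (Ctrl) against 59.7, 83.2 and 53.4 RPM (Kmt5b-sKO). The highest Kmt5b-sKO library lay 1 RPM above Ctrl replicate 2, and the log2 fold change of -0.59 (SE 0.27) had an adjusted p of 0.42 from limma. It was -0.26 without Ctrl replicate 3.

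**Figure D2:**
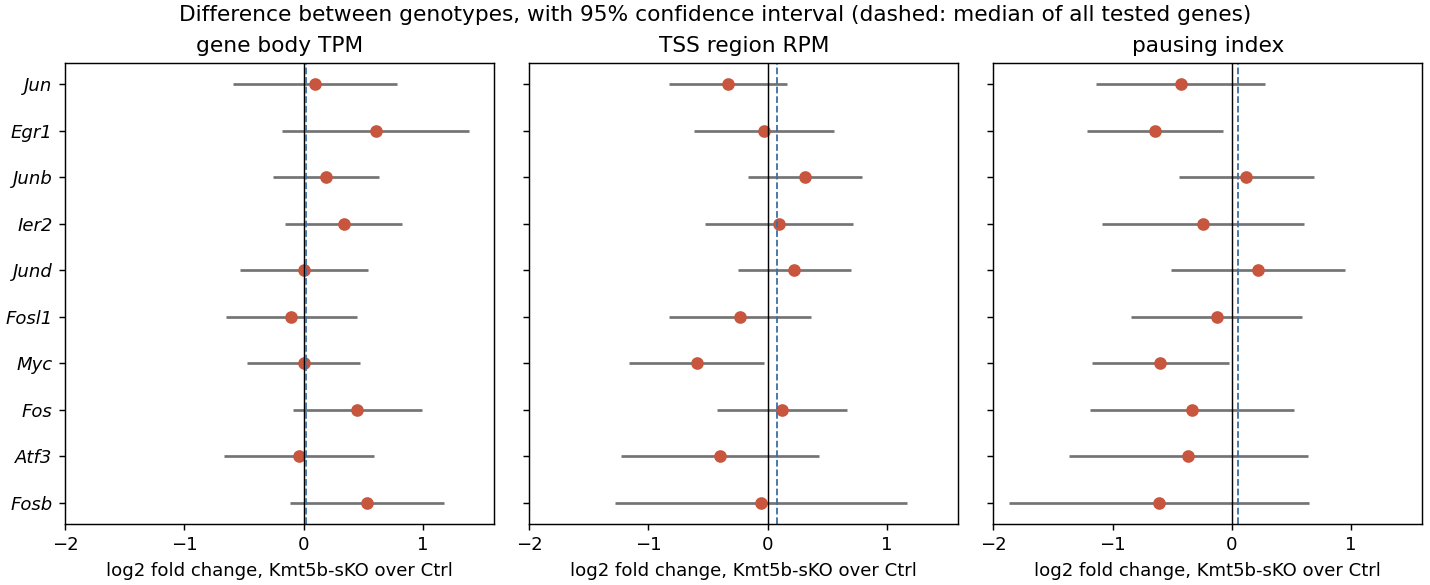
Log2 fold change of Kmt5b-sKO over Ctrl (dots) with its 95% confidence interval (lines) from limma for the 10 immediate early genes in the gene body, the TSS region and the PI. The solid line marks 0 and the dashed line the median of all tested genes (0.023, 0.081 and 0.053), and the intervals of all members include 0 except for Myc in the TSS region and for Egr1 and Myc in the PI.

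Counted over the members, the gene body gave 0 of 10 genes past an adjusted p under 0.1 in limma, where 2.99% of all tested genes passed (1.61% higher and 1.38% lower in Kmt5b-sKO), and 0 of 10 at an unadjusted p under 0.05 (15.9% of all). With edgeR and DESeq2 on the recovered reads 0 of 10 passed as well, and 0 and 1 had an unadjusted p under 0.05. The groups did not overlap for 0 of 10 members and for 21.4% of all genes. The fitted difference was above 0 for 8 of 10 (6 of 10 with either count tool), against 53.8% of all genes, with a median of 0.14 against 0.023 over all genes, and was 0.01 or less for Jund and Myc among the 8. For the TSS region 0 of 10 passed in limma, edgeR or DESeq2 (limma called 1.66% of all genes, 0.932% as higher and 0.731% as lower in Kmt5b-sKO), 1 of 10 had an unadjusted p under 0.05 (11% of all) and 1 of 10 had groups that did not overlap (15.6% of all). Of the members 4 had fitted differences above 0 (58.2% of all) and 6 below, with a median of -0.043 against 0.081 over all genes. This median had no stable sign: it was 0.17 without Ctrl replicate 3 (7 above 0), 0.15 without Kmt5b-sKO replicate 3 (6 above 0), -0.20 without Ctrl replicate 1 and -0.35 without Kmt5b-sKO replicate 2 (2 above 0), and -0.27 and -0.28 with edgeR and DESeq2.

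The members varied more between replicates of a group than most genes did in the gene body. On the log2 scale, the pooled standard deviation was above the median of all tested genes, 0.24, for 9 of 10 members, with Junb (0.21) as the exception, and it was highest for Egr1 (0.50). Fosb (1.07), Atf3 (0.91) and Ier2 (0.60) were the most variable in the TSS region, against a median of 0.36 over all genes. Ctrl replicate 3 held the highest TSS value for 5 of 10 members (Fosb, Fosl1, Ier2, Atf3 and Myc), while it was the highest for 13.6% of all genes. In the gene body it held the highest value for 3 members and the lowest for 5.

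Ordered by mean gene body TPM, the members ran Jun, Egr1, Junb, Ier2, Jund, Fosl1, Myc, Fos, Atf3 and Fosb. The ranges over the 6 libraries of neighbours overlapped except between Myc and Fos and between Fos and Atf3. The steps that held in all 6 libraries were Junb over Ier2, Myc over Fos and Fos over Atf3, whereas Jun lay above Egr1 in 4 of 6 and Fosl1 above Myc in 4 of 6. By TSS value Junb lay above Egr1 in 6 of 6 libraries. Fos, Jund and Fosl1, at means of 108, 107 and 102 RPM, were not separable by their spread, nor were Atf3 and Myc, whose order held in 3 of 6 libraries.

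**Figure D3:**
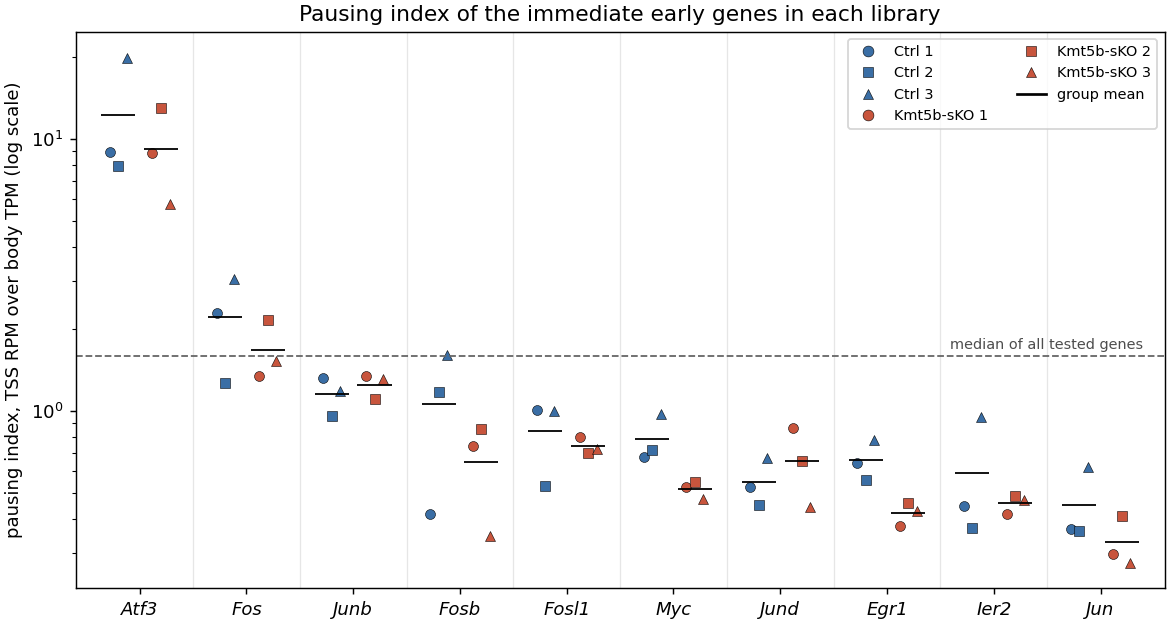
Pausing index on a log axis of the 10 immediate early genes in the 3 Ctrl (blue) and 3 Kmt5b-sKO (red) libraries, ordered by the mean over 6 libraries, with a bar at each group mean and a dashed line at the median of all tested genes (1.59). Atf3 lies above the line in all 6 libraries, and for Myc and Egr1 the 3 Kmt5b-sKO libraries lie below the 3 Ctrl libraries.

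The mean PI over 6 libraries had a median of 1.59 over the 11698 genes with a value in all libraries. Of the members only Atf3 and Fos exceeded it. Junb had 1.20, Fosb 0.857, Fosl1 0.794, Myc 0.654, Jund 0.601, Egr1 0.541, Ier2 0.523 and Jun 0.39. Over all genes the median PI was 0.841 for gene bodies of 600 to 1500 nt and 1.64 for those of 12000 to 24000 nt, and most members are short. Among the 1647 genes with a gene body under 5000 nt the median PI was 1.20, and 7 members fell in that class. Of these, Fos ranked above 72.7% and Junb above 49.8% of the class, while Myc, Jund, Egr1, Ier2 and Jun ranked above 28.8%, 25.9%, 23.2%, 22.2% and 15.0%. The low PIs of Myc, Jund, Egr1, Ier2 and Jun were thus below the median of genes of like length too, which is a description of ranks. For Jund the shifted start named above applies.

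**Figure D4:**
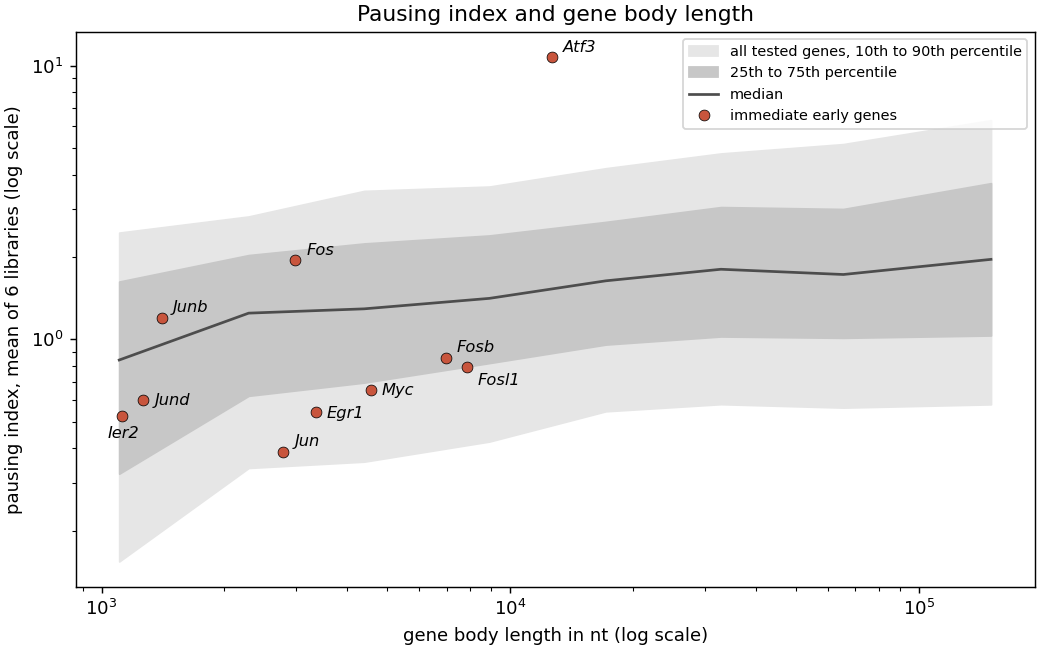
Mean PI over the 6 libraries against gene body length, both on log axes, with the median (line), the 25th to 75th and the 10th to 90th percentiles (bands) of all tested genes in classes of length, and the 10 immediate early genes as dots. Atf3 lies above the 90th percentile of genes of its length, Fos and Junb above the median, and the other seven below it.

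The PI of Egr1 was 0.646, 0.555 and 0.783 (Ctrl) against 0.377, 0.458 and 0.430 (Kmt5b-sKO), so the groups did not overlap. The log2 difference was -0.64 (SE 0.25, 95% confidence interval -1.21 to -0.07) with an unadjusted p of 0.032 from limma across all genes, and the adjusted p was 1. The PI of Myc was 0.678, 0.720 and 0.975 (Ctrl) against 0.527, 0.550 and 0.474 (Kmt5b-sKO), also without overlap, by -0.60 on the log2 scale (SE 0.25, unadjusted p = 0.043 and limma adjusted p = 1). With any single library left out the differences ranged from -0.76 to -0.51 for Egr1 and from -0.70 to -0.44 for Myc. The separation held only with each region scaled to its own library total. As an unscaled ratio of recovered reads per nt, Egr1 had 4.56, 2.12 and 7.23 (Ctrl) against 2.59, 2.64 and 2.45 (Kmt5b-sKO). Myc had 4.79, 2.75 and 9.00 against 3.61, 3.18 and 2.70, so the groups of each gene overlapped. In Egr1 the gene body was the region with the larger fitted difference (0.61 against -0.033 in the TSS region). In Myc it was the TSS region (-0.59 against 0.0011 in the gene body).

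For the PI 0 of 10 members passed an adjusted p under 0.1 in limma, as did 0% of all genes. An unadjusted p under 0.05 was seen for 2 of 10 members and 4% of all genes. That count was 0 without Ctrl replicate 3, Kmt5b-sKO replicate 1 or Kmt5b-sKO replicate 3, 1 without Ctrl replicate 2 or Kmt5b-sKO replicate 2, and 0 with a trend in the fit, with the replicate block or from reads per nt. Groups without overlap were seen for 2 of 10 members, both lower in Kmt5b-sKO, and for 9.02% of all genes, 3.09% being lower and 5.93% higher in Kmt5b-sKO. The fitted difference was below 0 for 8 of 10 members (all but Junb and Jund) and for 42.7% of all genes, 57.3% being above 0, with a median of -0.35 against 0.053 over all genes. This median rested on Ctrl replicate 3, which had the highest PI for 7 of 10 members (20.4% of all genes) and the deepest TSS coverage of the 6 libraries. Without it the median was -0.015 and 5 members lay on each side of 0, so no shift of the members as a group can be read from these libraries.

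By the likeness of gene body values over the 6 libraries, the nearest non-members of 8209 genes with a mean of at least 10 TPM were Bid, Parvb, Cript, Rpl37a and Mvb12b. Their root mean square difference from the mean profile of the members, after centring each gene, was 0.040 to 0.056 on the log2 scale, smaller than the 0.15 to 0.38 of the members themselves. These genes were picked as the closest of the 8209, whereas the members were not picked for closeness, so this order follows from the choice. The mean profile of the members had its highest value in Kmt5b-sKO replicate 2 (0.29 above the mean) and its lowest in Ctrl replicate 1 (-0.14). It is an average and not a course that each member followed. Of the 10 members 4 had their highest gene body value in Kmt5b-sKO replicate 2 (12.8% of all genes). Their lowest lay in Ctrl replicate 1 for 2 members (16.5% of all genes).

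The 10 members were set beside 42 other immediate early genes, of which 41 were tested and Egr4 was not analysed here. This list was chosen with earlier results of these data known, so its counts are a description only. This wider list holds EGR, NR4A and KLF factors, the DUSP phosphatases that switch off ERK, and the ZFP36 proteins that destabilise mRNA. For the gene body 37 of 41 had a fitted difference above 0 (53.8% of all genes), with a median of 0.45 against 0.023 over all genes. In 13 of 41 the 3 Kmt5b-sKO libraries lay above the 3 Ctrl libraries (12% of all genes) and in 0 below them (9.34%). With single libraries left out, 32 to 38 of the 41 were above 0 and the median was 0.35 to 0.52. The summed gene body values of the list were 4517, 5228 and 4933 TPM (Ctrl) against 5905, 7401 and 6030 TPM (Kmt5b-sKO), which did not overlap. By contrast with this list, the 10 members had a median of 0.14, and the difference between the lists was not tested.

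Of these 41 genes, 1 passed the test in the gene body (2.99% of all genes), and 16 had an unadjusted p under 0.05 (15.9% of all). Dusp2, a nuclear phosphatase of ERK, rose from 82.8, 100.1 and 149 TPM to 199, 255 and 290 TPM, a log2 fold change of 1.19 (SE 0.25, limma adjusted p = 0.082). It passed in 1 of 6 fits with a library left out (without Ctrl replicate 3; adjusted p between 0.030 and 0.26). The number of called genes of the list was 0 without Ctrl replicate 1 or any single Kmt5b-sKO replicate, fits in which 0 of all 12451 genes were called. It was 3 without Ctrl replicate 2 (261 of all genes) and 8 without Ctrl replicate 3 (836 of all). With edgeR it was 2 (748 of all) and with DESeq2 10 (1295 of all). The other 12 genes without overlap, picked out after their values were seen, were Gadd45b, Plk2, Trib1, Dusp1, Phlda1, Klf2, Arc, Klf4, Btg2, Dusp6, Hbegf and Egr3, with fitted differences from 0.47 to 1.26 and adjusted p-values of 0.11 or more.

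For the TSS region 31 of the 41 genes had a fitted difference above 0 (58.2% of all genes), with a median of 0.43 against 0.081. The groups did not overlap for 13 genes that were higher (10.2% of all) and 2 that were lower (5.33% of all) in Kmt5b-sKO. The called gene was one of the latter (1.66% of all genes called). Zfp36l1, whose product destabilises mRNAs with AU-rich elements, fell from 184, 205 and 170 RPM to 76.4, 129 and 88.3 RPM, a log2 fold change of -0.96 (SE 0.23, limma adjusted p = 0.062). It passed in 3 of 6 fits with a library left out, failing without Ctrl replicate 1, Kmt5b-sKO replicate 1 or Kmt5b-sKO replicate 3. Of the list, 7 genes were called as higher and 1 as lower without Ctrl replicate 3 (270 of all genes called). Without Ctrl replicate 2, 3 were called as higher and 1 as lower (408 of all), and without Ctrl replicate 1 the count was 0 (1 of all). The number of calls thus depended on the library left out, while no called gene of the list changed direction between these fits. For Zfp36l1, without the filter on low values or without the trend, the limma adjusted p was 0.34 and 0.28. Its gene body means were 121 TPM in Ctrl and 119 TPM in Kmt5b-sKO, and its PI was 1.93, 1.18 and 1.83 (Ctrl) against 0.704, 1.13 and 0.661 (Kmt5b-sKO) (limma adjusted p = 1). For the PI of the list 17 of 40 genes were above 0 (57.3% of all genes) and 23 below, with a median of -0.094 against 0.053 over all genes. Without Ctrl replicate 3 the median was 0.031 with 21 of 40 above 0, and without Ctrl replicate 2 it was -0.23 with 11 of 40 above 0. With all libraries, the PI groups did not overlap for 1 of 40 genes that was higher (5.93% of all) and 5 that were lower (3.09% of all) in Kmt5b-sKO. None of these passed the test.

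Some markers of other cell types also lay apart between the genotypes. Of 5 smooth muscle and pericyte genes 3 were tested and none was called, with sums of 73.7 to 178 TPM in Ctrl and 102 to 118 TPM in Kmt5b-sKO. Of the 7 muscle fibre genes 4 were tested, none was called, all 4 had fitted differences above 0, and the summed gene body values of the list were 448 to 983 TPM in Ctrl and 1179 to 1623 TPM in Kmt5b-sKO. Sox10, a transcription factor of Schwann cells, rose from 4.10, 3.64 and 2.14 TPM to 8.14, 15.5 and 8.80 TPM in the gene body (log2 fold change 1.56, limma adjusted p = 0.075). The part of these in the values of the immediate early genes was not tested.

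**Figure D5:**
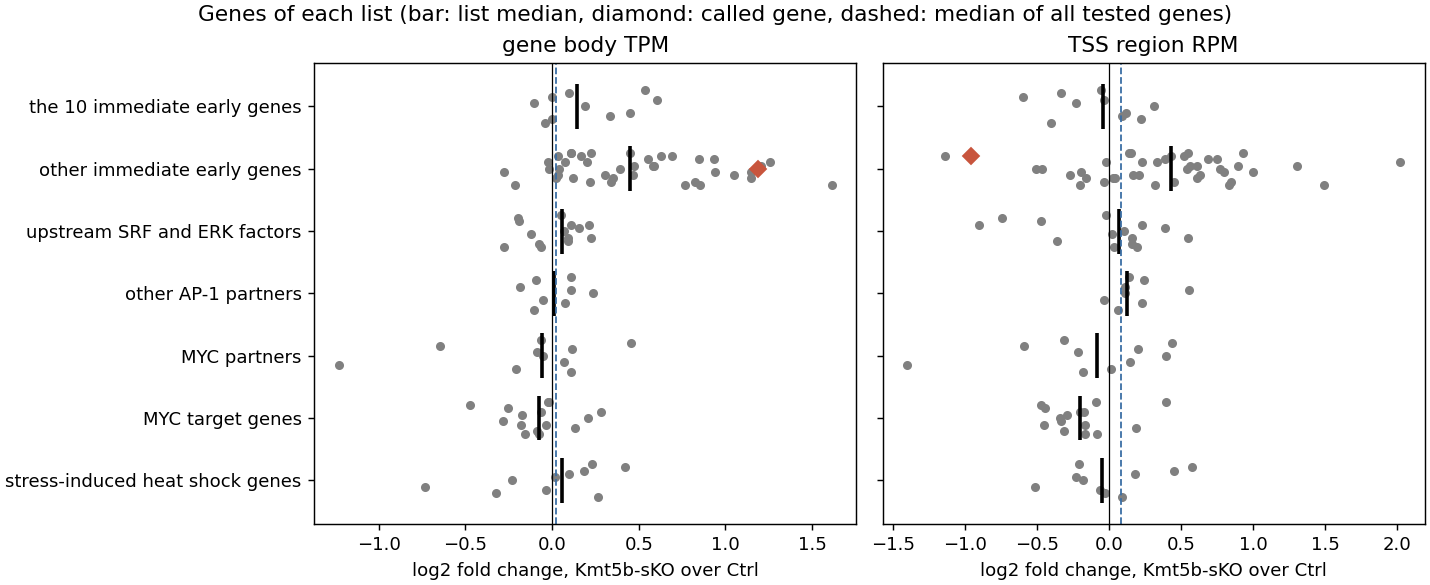
Log2 fold change of Kmt5b-sKO over Ctrl in the gene body (left) and the TSS region (right) for the genes of each list, with a bar at the list's median, a diamond for a gene past an adjusted p under 0.1 and a dashed line at the median of all tested genes. In the gene body the other immediate early genes have a median of 0.45 and the 10 members one of 0.14, and the remaining lists lie between -0.077 and 0.060.

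The signalling genes upstream showed no called gene. The list held Srf, SRF cofactors, ERK pathway kinases, CREB kinases and Creb1. Of these 14 genes 0 passed in either region in limma, with medians of 0.060 (gene body) and 0.070 (TSS region). Of all genes 2.99% and 1.66% passed, so 0 called genes in a list this short lies near those shares. At an unadjusted p under 0.05 there were 0 in the gene body (15.9% of all) and 1 in the TSS region (11% of all). The TSS region of Srf, the serum response factor gene, held 35.8, 39.6 and 32.4 RPM (Ctrl) against 59.0, 58.8 and 41.9 RPM (Kmt5b-sKO) (log2 fold change 0.55, limma adjusted p = 0.39). Rps6ka4, a kinase of CREB and histone H3, had the lowest p in the gene body (log2 fold change -0.28, limma adjusted p = 0.55). In the PI the lowest p was that of Rps6ka5, a related kinase (log2 difference -1.21, limma adjusted p = 1).

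Of 11 other AP-1 partners, 10 were listed and 8 tested, and 0 passed in either region in limma. In the gene body 2.99% and in the TSS region 1.66% of all genes passed, so 0 of 8 lies near those shares. At an unadjusted p under 0.05 there were 0 in the gene body (15.9% of all) and 1 in the TSS region (11% of all). Jdp2, a repressor that pairs with JUN, had 21.1, 21.8 and 22.5 RPM in the Ctrl and 34.1, 29.7 and 33.1 RPM in the Kmt5b-sKO TSS regions. Its groups did not overlap, as for 10.2% of all genes in that direction (log2 fold change 0.55, limma adjusted p = 0.43). Mafk had the lowest p, with a log2 fold change of 0.24 (limma adjusted p = 0.77) in the gene body.

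Of 10 MYC partners 0 passed in the gene body (2.99% of all genes) or the TSS region (1.66%) in limma. At an unadjusted p under 0.05 there was 1 in each (15.9% and 11% of all). Mxd3, which competes with MYC for MAX and is known from S phase cells, came nearest with 46.7, 39.1 and 17.2 RPM in the Ctrl and 15.7, 6.60 and 15.2 RPM in the Kmt5b-sKO TSS regions (log2 fold change -1.40, limma adjusted p = 0.10). Its gene body had 21.2, 19.3 and 6.35 TPM (Ctrl) against 3.86, 4.37 and 10.3 TPM (Kmt5b-sKO), with overlap. Of 15 MYC target genes 0 passed, with 1 (gene body) and 0 (TSS region) at an unadjusted p under 0.05, beside the same shares of all genes. Of these, in the gene body 12 of 15 and in the TSS region 13 of 15 had fitted differences below 0 (46.2% and 41.8% of all genes), with medians of -0.077 and -0.20. The lowest p in the gene body was that of Ncl, the nucleolin gene, at 325, 466 and 339 TPM (Ctrl) against 251, 301 and 255 TPM (Kmt5b-sKO) (log2 fold change -0.47, limma adjusted p = 0.29). For the TSS region it was that of Nop56, which takes part in ribosomal RNA modification (log2 fold change -0.44, limma adjusted p = 0.47).

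Of 10 heat shock genes, which stand for acute stress, 0 passed in either region in limma, and the medians were 0.057 (gene body) and -0.045 (TSS region). Of all genes 2.99% and 1.66% passed, so 0 in a list this short lies near those shares. At an unadjusted p under 0.05 there were 1 in the gene body (15.9% of all) and 2 in the TSS region (11% of all). Hsp90aa1, the inducible form of the chaperone HSP90, had 187, 321 and 131 TPM (Ctrl) against 114, 132 and 113 TPM (Kmt5b-sKO) (log2 fold change -0.73, limma adjusted p = 0.30), with overlap. In the TSS region Hspb1 had 179, 151 and 172 RPM (Ctrl) against 262, 206 and 287 RPM (Kmt5b-sKO). Its groups did not overlap, as for 10.2% of all genes in that direction (log2 fold change 0.57, limma adjusted p = 0.26).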

How the data were processed

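PRO-seq values of 6 mouse MuSC libraries (3 Ctrl, 3 Kmt5b-sKO) were used. Per the submitters' processing notes and the methods, reads were checked with FastQC 0.11.8, trimmed with Trimmomatic 0.39, aligned to GRCm38 with STAR 2.6.1d, with 1 random position for a read that matched several, and deduplicated with Picard 2.18.16, which lowers counts where many reads share a position. For 1 isoform per gene the authors deposited RPM over the TSS region (400 nt), which their methods call TPM, and TPM over the gene body. No column lacked a sample (0).

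Genes on X and Y and genes with a mean under 0.5 in either region were left out. Values were tested as log2(value + 0.5), which understates changes of low values, with limma 3.58.1 (eBayes with a trend) in R 4.3.3, while the PI entered as a log2 ratio, with neither pseudocount nor trend. A gene counted as called when its two-sided p, adjusted over all genes tested (Benjamini-Hochberg), was under 0.1. Whole reads were recovered from the value steps (tolerance 0.005) for 99.985% to 100% of TSS values and 98.3% to 99.5% of gene body values under 2000 nt, and were tested with edgeR 4.0.16 and DESeq2 1.42.0. Tables and plots used Python 3.11.15, numpy 2.4.6, pandas 2.3.3 and matplotlib 3.10.9. The limma and edgeR tests were checked on simulated data, and DESeq2 was not. Depth limits single values to the read numbers given beside them.

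Members and gene lists were chosen with earlier results of these data known. All members were named, and from each list the called genes (at most 5) or else the gene with the lowest p. Likeness was ranked over genes of at least 10 TPM. Alternatives were other pseudocounts, no filter, X and Y included, the other eBayes setting, equal library medians, a replicate block, the count tools, reads per nt for the PI, and each library left out. Some marker genes of the Schwann cell list are not reported here.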

Additional observations from a re-analysis of the deposited data

How the results depend on the processing

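Of the fold changes of the 10 members in 3 measures, 263 of 270 kept direction and side of the threshold under alternatives that used all libraries. The 7 others turned sign. In the TSS region Egr1 went to 0.0081 with edgeR, and Ier2 to -0.16 with both edgeR and DESeq2. In the gene body Jund went to -0.033 with edgeR and -0.038 with DESeq2, and Myc to -0.045 with edgeR and -0.050 with DESeq2. The causes were not tested.

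With 1 library left out, 149 of 180 were unchanged in direction and call, 30 turned sign and 1, Fosb in the gene body, became called. In the TSS region the fold changes ranged from -0.17 to 0.42 for Fos, -0.69 to 0.61 for Fosb, -0.60 to 0.095 for Fosl1, -0.45 to 0.19 for Egr1, -0.21 to 0.54 for Ier2 and -0.94 to 0.23 for Atf3. In the gene body they ranged from -0.32 to 0.073 for Fosl1, -0.17 to 0.34 for Jun, -0.24 to 0.14 for Jund, -0.32 to 0.17 for Atf3, -0.14 to 0.18 for Myc and 0.37 to 0.85 for Fosb. Without a change of sign, the gene body ranges were 0.26 to 0.66 for Fos and 0.16 to 0.47 for Ier2, the TSS ranges -0.54 to -0.12 for Jun, 0.19 to 0.44 for Junb and 0.0064 to 0.37 for Jund, and the PI ranges -1.18 to -0.21 for Fosb and -0.60 to -0.17 for Jun. For the PI they ranged from -0.44 to 0.030 for Fosl1, -0.0053 to 0.23 for Junb, -0.0091 to 0.48 for Jund, -0.51 to 0.16 for Ier2 and -0.65 to 0.051 for Atf3. The number of members called in the gene body was 0 to 1 and the members' median PI difference -0.57 to -0.015, with the call and the value nearest 0 both without Ctrl replicate 3.

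The replicate numbers did not pair the libraries (correlations of same-numbered deviations -0.33 to -0.15 in the gene body and -0.16 to -0.03 in the TSS region). With the replicate number as a block, 0 members and 0 genes were called in each measure, and the members' medians stayed at -0.043, 0.14 and -0.35 in the TSS region, the gene body and the PI. Dusp2 and Zfp36l1 then had adjusted p-values of 0.24 and 0.17.

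Over all genes, the calls changed by over 1.5 times in several settings. The 207 in the TSS region became 0 without the filter, without a trend and with the block. The 372 in the gene body became 748 with edgeR, 1295 with DESeq2 and 0 with the block. With 1 library left out, the TSS calls numbered 1, 408 and 270 when the omitted library was Ctrl replicate 1, 2 or 3, and 16, 132 and 46 when it was Kmt5b-sKO replicate 1, 2 or 3. The gene body calls were 836 without Ctrl replicate 3, 261 without Ctrl replicate 2, and 0 without Ctrl replicate 1 or any Kmt5b-sKO replicate, so the shares of all genes called hold only for the full set of libraries. The 0 for the PI became 13 from reads per nt and 1 with a pseudocount of 0.5. Zfp36l1 had an adjusted p of 0.34 without the filter and 0.28 without a trend. With 3 libraries per group, the standard errors of the members' fold changes were 0.19 to 0.34 in the gene body and 0.23 to 0.59 in the TSS region (log2).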
